A study of Homo sapiens with 8 samples.

Results

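The 10 genes of ferroptosis defence and lipid peroxidation followed here through 8 RNA libraries of K562 cells are SLC7A11, SLC3A2, GPX4, AIFM2, DHODH, ACSL4, LPCAT3, POR, VDAC2 and VDAC3. They were chosen by name for their roles in cystine uptake, lipid peroxide repair, quinone reduction, polyunsaturated lipid synthesis and mitochondrial transport. Earlier results of these data were known when they were chosen. All 10 were found among the 19447 genes of the count table and passed the filter on low counts. K562 is an established human line from a chronic myeloid leukaemia that carries BCR-ABL1, and the labels give its genotype as WT. There were 4 control libraries without Lip-1 (replicates 1 to 4, Day 0), 3 libraries given Lip-1 at 10 µM for 24 h (replicates 2 to 4, Day 1) and 1 given 20 µM for 24 h (replicate 1, Day 1). Lip-1 is the usual short name of liproxstatin-1, a radical-trapping inhibitor of lipid peroxidation. All groups were a single cell line in serum-containing medium. The labels do not say whether controls received a vehicle, so treatment cannot be told apart from the day label or from a solvent.

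Ferroptosis is a form of cell death in which iron-driven peroxidation of polyunsaturated phospholipids runs ahead of its repair. System xc-, the pair SLC7A11 and SLC3A2, brings in cystine for glutathione, and GPX4 uses glutathione to reduce lipid peroxides in membranes. AIFM2 (FSP1) and DHODH reduce coenzyme Q, which traps lipid radicals at the plasma membrane and in mitochondria. ACSL4 and LPCAT3 place polyunsaturated fatty acids into phospholipids and so supply what is oxidised, and POR passes electrons from NADPH to cytochromes P450. VDAC2 and VDAC3 are channels of the outer mitochondrial membrane and reported targets of erastin, a compound that triggers ferroptosis.

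Library totals lay between 71151415 and 141307169 counts, and the lowest count of any of the 10 genes was 901. The 20 µM library stood apart from the rest, with 62.3% of genes tested beyond all 7 other libraries (35.3% above and 27% below, and 62.8% in all with library totals scaled by edgeR's TMM factors), and it has no replicate. Of the 10 genes 8 lay beyond them there, 5 above and 3 below, with either scaling. All 8 erythroid markers of K562 were at 1 CPM (counts per 1000000 of the library) or more in every library. Their summed level was 4103 to 7218 CPM in the controls, 3301 to 4329 at 10 µM and 2610 at 20 µM. Most of it was HBG1, HBG2 and HBZ in every library. At 10 µM HBG1 and KLF1 lay below every control, and the other markers overlapped the controls. TAL1 stood at 113.9 to 182.4 CPM there against 63.6 to 140.5 in the controls, and GATA1 at 184.4 to 234.7 against 184.8 to 253.7. At 20 µM each of the 8 lay below every control. Markers of lymphocytes summed to at most 23.8 CPM, and those of epithelium and fibroblasts to at most 55.1. The 6 markers of monocytes and granulocytes summed to 17.9 to 126 CPM in the controls, 19.8 to 108 at 10 µM and 22.8 at 20 µM, with MPO at 0 in the controls and MPO and S100A8 at 0 at 20 µM. LYZ led this sum, at 122 and 124 CPM in controls 1 and 4 and 106.5 CPM in 10 µM replicate 4. In the other libraries LYZ stood at 17.5 to 26.2 CPM, and ITGAM was at most 2.53 CPM in any library. The part of these markers in the results was not tested, and in bulk RNA a changed level per cell cannot be told apart from a changed mix of cells. Nothing in the labels says that replicates were separate cultures, so p-values measure the spread between these libraries.

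At 10 µM, 2 of the 10 genes rose (SLC7A11 and ACSL4) and 3 fell (DHODH, VDAC2 and VDAC3) by edgeR's quasi-likelihood test with Benjamini-Hochberg adjustment over all genes at 0.05. Of all 14857 genes tested in that comparison 19.1% passed, 9.34% higher and 9.79% lower. Since the 10 were chosen with earlier results known, their share here and in the later comparisons is not an independent result. Blocking on replicate number brought this to 8 of the 10, 3 higher and 5 lower, by adding SLC3A2, AIFM2 and LPCAT3, while the count over all genes went from 2842 to 4657. The 10 µM and control libraries were fully separated in 6 of the 10 genes (SLC7A11, SLC3A2 and ACSL4 above, DHODH, VDAC2 and VDAC3 below), as they were in 32.6% of all genes, 21.8% above and 10.7% below. With TMM-scaled totals, the scaling of the tests, POR joined those below, for 7 of the 10 genes and 31.4% of all genes. The median log2 fold change of the 10 genes was -0.28 and that of all genes 0.05, and the median size without sign was 0.38 and 0.37.

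Between the single 20 µM library and the 10 µM libraries 9 of the 10 differed, where 26.3% of all genes did (11.7% higher and 14.6% lower). SLC7A11, SLC3A2, GPX4, AIFM2 and POR were higher at 20 µM, and DHODH, ACSL4, LPCAT3 and VDAC3 were lower. The exception, VDAC2, stood at -0.05 (SE 0.13, edgeR adjusted p = 0.817). The median size of the difference was 1.14 for the 10 genes and 0.65 for all genes on the log2 scale. This test assumes that the lone library varies like the others. Both comparisons use the same 10 µM libraries.

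**Figure D1:**
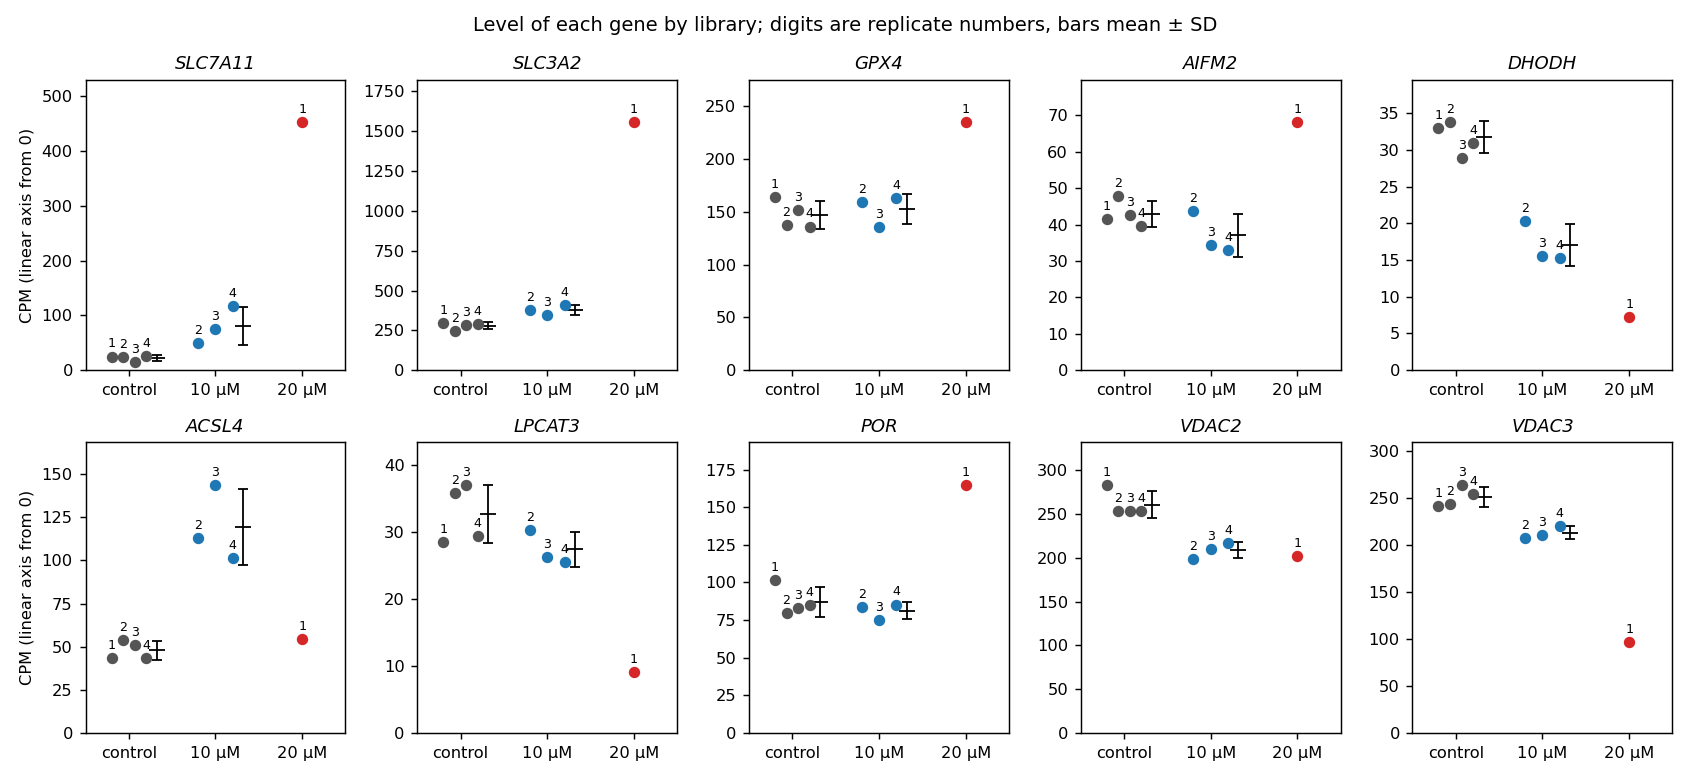
Level of each of the 10 genes in CPM (linear axes from 0) in 4 control, 3 10 µM and 1 20 µM library, with replicate numbers and, beside groups of more than 1, the mean ± SD. The 20 µM library lies above all others for SLC7A11, SLC3A2, GPX4, AIFM2 and POR, and for ACSL4, at 54.7 CPM, close to the highest control at 54.1.

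SLC7A11, the cystine-importing light chain (chromosome 4, 138164097 to 138242349, minus strand, hg38), stood at 25.0, 23.8, 14.8 and 26.6 CPM in controls 1 to 4. It stood at 49.2, 75.4 and 118 CPM in 10 µM replicates 2, 3 and 4, and at 453 CPM at 20 µM. Every treated library lay above every control, and the 20 µM library lay above all 3 at 10 µM. The rise at 10 µM was 3.28-fold (log2 1.71, SE 0.26, edgeR adjusted p = 0.00411), and the 20 µM library stood 5.64-fold higher again (log2 2.50, SE 0.36, adjusted p = 0.00184). The 3 libraries at 10 µM were spread from 49.2 to 118 CPM (SD 34.6), against an SD of 5.26 among the controls.

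SLC3A2 (CD98, chromosome 11, 62856102 to 62888875, plus strand) is the heavy chain that carries SLC7A11 and other amino acid transporters to the cell surface. It stood at 297, 249, 283 and 288 CPM in controls 1 to 4, at 380.4, 349 and 408 CPM in 10 µM replicates 2 to 4, and at 1558 CPM at 20 µM. The 3 groups did not overlap. At 10 µM the log2 fold change was 0.31 (SE 0.10) and narrowly missed the threshold (edgeR adjusted p = 0.0509). It passed in 6 of 16 fits, among them the replicate block (edgeR adjusted p = 0.0269). Over all 16 the adjusted p by edgeR, DESeq2 or limma-voom ran from 0.0246 to 0.13. The 20 µM library stood 4.11-fold above 10 µM (log2 2.04, SE 0.13, edgeR adjusted p = 0.000103).

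The stretch of 250 bases before a RefSeq start of SLC3A2 is shown because it holds the core of an antioxidant response element, TGACNNNGC, the letters to which NRF2 and related factors bind. That start lies inside the gene span given above. GENCODE lists 23 transcripts of SLC3A2, and no other start of a gene was searched. In the sequence, from RefSeq on GRCh38.p14 at chr11:62881449-62881698 (plus strand, 5′ to 3′), capitals mark that core, 37 to 29 bases before the start.
SLC3A2: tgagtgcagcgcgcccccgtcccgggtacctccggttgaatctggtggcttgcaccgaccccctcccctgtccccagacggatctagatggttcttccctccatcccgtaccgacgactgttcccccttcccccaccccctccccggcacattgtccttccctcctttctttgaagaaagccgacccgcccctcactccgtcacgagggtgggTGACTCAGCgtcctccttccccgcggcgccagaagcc
Of the 10 genes, 7 matched a promoter in the RefSeq table by symbol (SLC3A2, GPX4, AIFM2, DHODH, ACSL4, LPCAT3 and VDAC2), and among these AIFM2 alone also held the core. The AIFM2 core, too, lies inside the span of its gene (70098223 to 70132934). The sites are set side by side below in gene orientation, with 10 bases on each side, SLC3A2 at chr11:62881652-62881680 (plus strand) and AIFM2 at chr10:70132829-70132857 (minus strand).
SLC3A2: cgagggtgggTGACTCAGCgtcctccttc
AIFM2: cagcacgagtGCTGAGTCAcgccccgccc
Read on its own strand, the core is TGACTCAGC in both genes, a string searched for after these sequences were seen, and its letters also contain the AP-1 letters TGACTCA. Of 27305 promoters of the same length, searched on both strands, 11.0% held TGACNNNGC, 4.16% held TGACTCA and 0.465% held TGACTCAGC. The core of the amino acid response element, TGATGNAA, was in 3.19% of promoters and in none of those searched for these genes. A match describes letters in a window and not a bound site.

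GPX4, the peroxidase that reduces phospholipid hydroperoxides (chromosome 19, 1103926 to 1106791, plus strand), stood at 164, 137, 152 and 136 CPM in controls 1 to 4. It stood at 159, 136 and 163 CPM in 10 µM replicates 2 to 4, and at 235 CPM at 20 µM. The 10 µM and control libraries overlapped, with 10 µM replicate 3 just below the lowest control (both 136 CPM), and the 20 µM library lay above all 7 others. The 10 µM difference was -0.08 on the log2 scale (SE 0.11, edgeR adjusted p = 0.682). The 20 µM library stood 1.54-fold above 10 µM (log2 0.62, SE 0.16, edgeR adjusted p = 0.0188), a call that was lost with the replicate block (adjusted p = 0.183) and without 10 µM replicate 3 (adjusted p = 0.0573).

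AIFM2, the coenzyme Q reductase FSP1 (chromosome 10, 70098223 to 70132934, minus strand), stood at 41.4, 47.9, 42.7 and 39.6 CPM in the controls, 43.8, 34.3 and 33.0 CPM at 10 µM and 68.2 CPM at 20 µM. Its 10 µM replicates 3 and 4 lay below every control, while replicate 2 lay among them, and the 20 µM library lay above all 7 others. The log2 difference at 10 µM was -0.34 (SE 0.14, edgeR adjusted p = 0.128), which passed with the block (adjusted p = 0.0265) and without 10 µM replicate 2 (-0.51, adjusted p = 0.0323). Between 20 µM and 10 µM AIFM2 differed in the other direction, by 1.84-fold (log2 0.88, SE 0.20, edgeR adjusted p = 0.0128).

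DHODH, the mitochondrial enzyme that passes electrons from dihydroorotate to coenzyme Q in pyrimidine synthesis (chromosome 16, 72008588 to 72027664, plus strand), stood at 33.0, 33.8, 28.9 and 31.0 CPM in controls 1 to 4. It stood at 20.3, 15.6 and 15.3 CPM in 10 µM replicates 2 to 4 and at 7.25 CPM at 20 µM. The 3 groups did not overlap, and the level was lower at each dose. The fall at 10 µM was to 0.494 of the control (log2 -1.02, SE 0.15, edgeR adjusted p = 0.00314), and the 20 µM library stood at 0.424 of 10 µM (log2 -1.24, SE 0.23, adjusted p = 0.00535). Of the 10 genes, DHODH and VDAC3 were those lower at 10 µM and lower again at 20 µM by both tests.

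ACSL4, which activates arachidonic and adrenic acid to their CoA esters (chromosome X, 109624244 to 109733403, minus strand), stood at 43.3, 54.1, 51.2 and 43.4 CPM in controls 1 to 4. It stood at 113, 144 and 101 CPM in 10 µM replicates 2 to 4 but at 54.7 CPM at 20 µM. Every 10 µM library lay above every control. At 20 µM it lay close to the highest control, 54.1 CPM, and inside the control range with TMM-scaled totals. The rise at 10 µM was 2.28-fold (log2 1.19, SE 0.17, edgeR adjusted p = 0.00289), and 20 µM stood at 0.456 of 10 µM (log2 -1.13, SE 0.27, adjusted p = 0.0145). It was the only gene of the 10 that passed in opposite directions in the 2 tests.

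LPCAT3, the acyltransferase that places polyunsaturated acyl chains into phospholipids (chromosome 12, 6976186 to 7018510, minus strand), stood at 28.6, 35.8, 37.1 and 29.4 CPM in the controls and at 30.4, 26.3 and 25.6 CPM in 10 µM replicates 2 to 4. The 20 µM library stood far below both groups, at 9.04 CPM. At 10 µM the log2 difference was -0.39 (SE 0.16, edgeR adjusted p = 0.126, and 0.0171 with the block). The 20 µM library stood at 0.329 of 10 µM (log2 -1.60, SE 0.27, edgeR adjusted p = 0.00318). EMG1 and C1S overlap LPCAT3 on the opposite strand, and the sources used here do not say whether counting used strand.

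POR, the NADPH reductase that feeds electrons to cytochromes P450 and squalene epoxidase (chromosome 7, 75899200 to 75986855, plus strand), stood at 102, 79.5, 83.0 and 84.8 CPM in controls 1 to 4 and at 83.5, 75.2 and 85.3 CPM in 10 µM replicates 2 to 4. These groups overlapped in CPM. With TMM-scaled totals the 10 µM libraries, at 73.9 to 80.8, lay below the controls, at 83.8 to 102, and the difference did not pass (log2 -0.23, SE 0.10, edgeR adjusted p = 0.148). At 20 µM it stood at 165 CPM, 2.03-fold above 10 µM (log2 1.02, SE 0.14, adjusted p = 0.00158).

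VDAC2 (chromosome 10, 75210154 to 75231448, plus strand) stood at 284, 253, 253 and 253 CPM in controls 1 to 4, at 199, 209.5 and 217 CPM in 10 µM replicates 2 to 4 and at 202 CPM at 20 µM. Every treated library lay below every control, and the 20 µM library lay within the 10 µM range. The fall at 10 µM was to 0.732 of the control (log2 -0.45, SE 0.09, edgeR adjusted p = 0.00966). VDAC3, on chromosome 8, stood at 241, 244, 264 and 254 CPM in the controls, at 208, 211 and 220.5 CPM at 10 µM and at 96.9 CPM at 20 µM. Its fall at 10 µM was to 0.776 of the control (log2 -0.37, SE 0.10, edgeR adjusted p = 0.0302), and 20 µM stood at 0.454 of 10 µM (log2 -1.14, SE 0.16, adjusted p = 0.00145). The call of VDAC3 at 10 µM was lost without any of controls 2, 3 and 4 or 10 µM replicates 3 and 4 (adjusted p of 0.0636, 0.0751, 0.0661, 0.0718 and 0.0668). GENCODE names 4 pseudogenes after VDAC2 and 1 after VDAC3, so how reads from near-identical copies were assigned is uncertain.

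**Figure D2:**
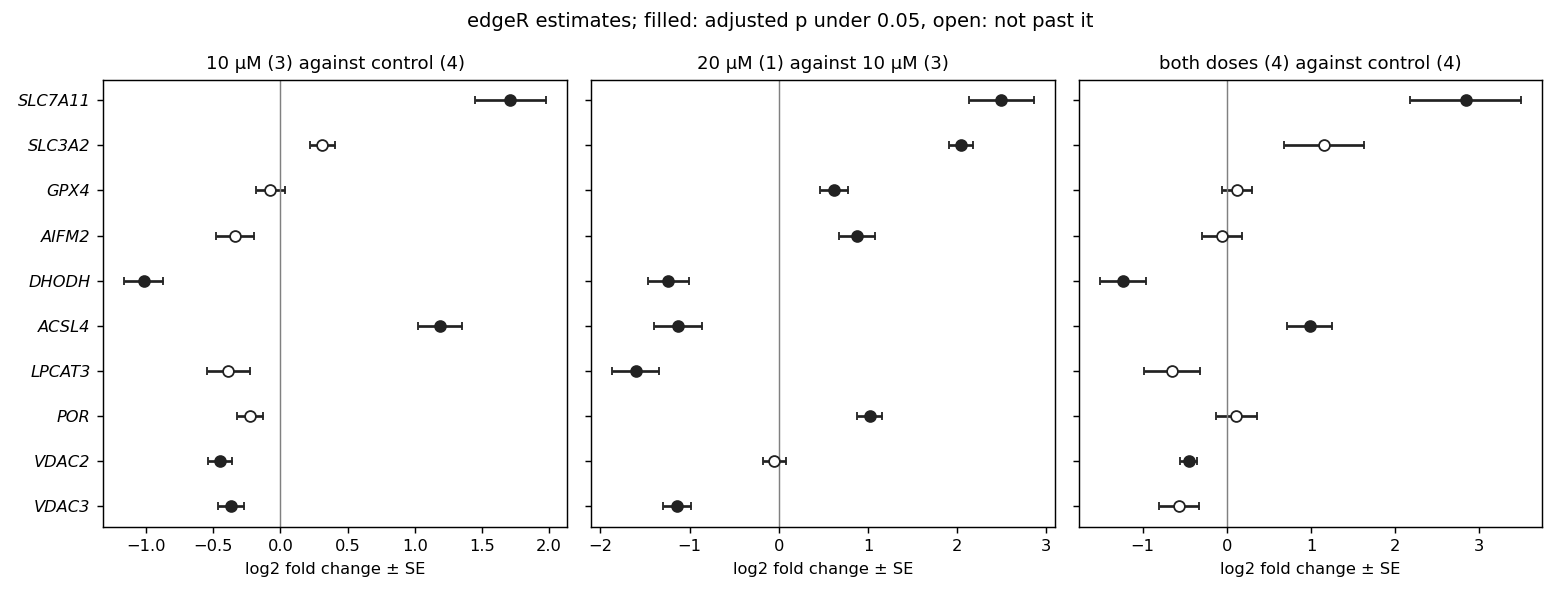
edgeR log2 fold changes ± SE of the 10 genes for 10 µM against control, the 20 µM library against 10 µM and both doses combined against control (each panel has its own scale). Filled points passed an adjusted p of 0.05, 5 of 10 in the left panel, 9 in the middle and 4 on the right, and ACSL4 lies right of 0 at 10 µM and left of it for 20 µM against 10 µM.

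With both doses combined against control, 4 of the 10 genes passed, SLC7A11 and ACSL4 higher and DHODH and VDAC2 lower, where 14.2% of all 13101 genes tested passed (7.47% higher and 6.69% lower). No treated library fell inside the control range in 6 of the 10 genes, SLC7A11, SLC3A2 and ACSL4 above and DHODH, VDAC2 and VDAC3 below, and the same was so of 28.6% of all genes tested (18.1% above and 10.5% below). With TMM-scaled totals this held for 5 of the 10 genes and 28% of all, since ACSL4 at 20 µM, at 52.9, was then inside the control range of 43.3 to 56.9. The fold changes were 2.84 (SE 0.66, edgeR adjusted p = 0.0302) for SLC7A11, 0.98 (SE 0.27, adjusted p = 0.0431) for ACSL4, -1.24 (SE 0.27, adjusted p = 0.0265) for DHODH and -0.45 (SE 0.10, adjusted p = 0.0255) for VDAC2 on the log2 scale. The calls were lost when single libraries were left out, while the fold changes stayed between 2.70 and 3.12 for SLC7A11, 0.75 and 1.05 for ACSL4, -1.47 and -1.20 for DHODH and -0.49 and -0.43 for VDAC2. By edgeR 0 of the 10 passed without any of controls 1 to 4 (4 at an unadjusted p under 0.05 in each case) or without 10 µM replicate 4 (6 unadjusted), 2 passed without 10 µM replicate 3 and 3 without 10 µM replicate 2. The count over all genes moved too, from 1855 to 567, 149, 64 and 315 without controls 1, 2, 3 and 4. It was 312, 814 and 2063 without 10 µM replicates 4, 3 and 2. Without the 20 µM library 6 of the 10 genes and 3021 of all genes passed, and the log2 fold change of SLC7A11 was 1.70. The comparison shares its controls with that at 10 µM.

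Levels of different genes were set against each other only per length, as counts per kilobase of exon scaled to 1000000 per library. In the controls VDAC2 was highest at 381 ± 16.2 (SD, n = 4), followed by VDAC3 at 330 ± 15.6, GPX4 at 301 ± 21.8 and SLC3A2 at 223 ± 12.8. POR stood at 58.9 ± 5.56, AIFM2 at 34.6 ± 3.51, ACSL4 at 31.0 ± 4.09, LPCAT3 at 28.7 ± 4.20, DHODH at 18.9 ± 1.44 and SLC7A11 at 9.66 ± 2.25. The neighbours VDAC3 and GPX4, AIFM2 and ACSL4, and ACSL4 and LPCAT3 overlapped among control libraries, and the other neighbours did not. At 20 µM the order began with SLC3A2 at 1301 and GPX4 at 503, SLC7A11 stood at 203 (rank 4), and LPCAT3 (8.27) and DHODH (4.53) were last. The order depends on the length used: with the longest transcript in place of the union of exons VDAC3 led on average, and the ratio of the highest to the lowest gene in the controls was 84.1 in place of 41.4.

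Ratios within a library show unequal change between partners. SLC3A2 carries several light chains, and over 6 of them (SLC7A5, SLC7A6, SLC7A7, SLC7A8, SLC7A10 and SLC7A11) SLC7A11 made up 2.15% to 3.38% of the summed per-length level in the 4 controls. Its share was 7.51%, 12.5% and 13.5% in 10 µM replicates 2 to 4 and 25.9% at 20 µM. The main leucine importer light chain SLC7A5 held 61.4% to 67.5% in the controls, 51.6% to 61.8% at 10 µM and 63.0% at 20 µM. The 6 light chains together stood at 1.31 to 1.68 times SLC3A2 in the controls, 0.923 to 1.14 times at 10 µM and 0.602 times at 20 µM, so that the heavy chain exceeded the light chains' sum in 10 µM replicates 2 and 3 and at 20 µM but in none of the controls. That side of 1 depends on the length used: with the longest transcript the ratio was 0.618 to 0.794 in the controls, 0.434 to 0.531 at 10 µM and 0.272 at 20 µM, below 1 throughout and in the same order of groups.

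ACSL4 stood at 1.02 to 1.11 times LPCAT3 in the 4 controls, at 2.74 to 4.02 times in the 3 libraries at 10 µM and at 4.46 times at 20 µM. With the longest transcript as the length, ACSL4 was below LPCAT3 in the controls (0.751 to 0.823 times) and above it at 10 µM (2.02 to 2.97) and 20 µM (3.29). At 10 µM ACSL4 was the member that rose, whereas at 20 µM it stood near its control level and LPCAT3 was low. GPX4 stood at 13.9 to 18.0 times DHODH in the controls, 26.9 to 36.5 times at 10 µM and 111 times at 20 µM. AIFM2 stood at 1.69 to 1.99 times DHODH in the controls, 2.91 to 2.97 times at 10 µM and 12.7 times at 20 µM. Among the 3 VDAC isoforms, VDAC2 held 29.3% to 35.5% in the controls, 30.8% to 32.5% at 10 µM and 45.0% at 20 µM, and VDAC3 held 26.4% to 28.7%, 28.7% to 29.7% and 19.5%. The summed VDAC level was 1141 to 1263 among controls, 972 to 1023 at 10 µM and 685 at 20 µM.

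**Figure D3:**
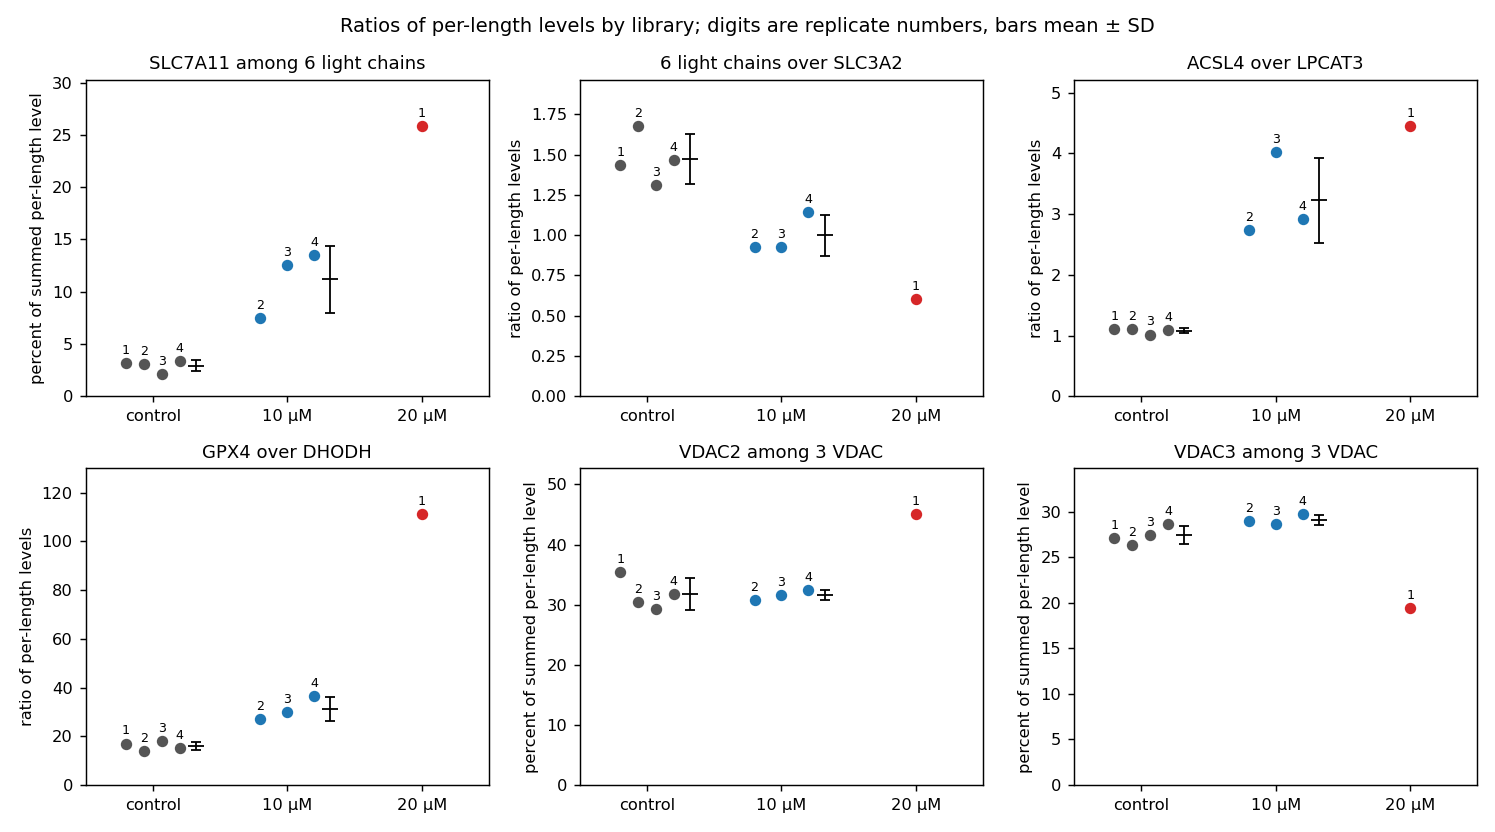
Per-length shares and ratios by library (linear axes from 0) in 4 control, 3 10 µM and 1 20 µM library, with replicate numbers and mean ± SD beside groups of more than 1. The SLC7A11 share climbs from at most 3.38% in the controls to 25.9% at 20 µM, and the VDAC3 share is 19.5% at 20 µM against 26.4% or more elsewhere.

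Among 94 other genes of the pathway and its partners, 88 were tested at 10 µM, of which 15 were higher and 12 lower (30.7%, where 19.1% of all genes passed). Between 20 µM and 10 µM 21 were higher and 23 lower (50.0%, where 26.3% of all genes passed). With both doses combined 87 were tested, of which 6 were higher and 6 lower (13.8%, where 14.2% of all genes passed), or 6 and 2 under upper-quartile scaling. The list counts below stand beside these shares of all genes. These lists too were chosen with earlier results of these data known, so their shares are not independent of that choice. At 10 µM the lists of cystine and glutathione (22.2%), GPX and selenoprotein (20%), quinone (17.6%) and lipid remodelling genes (14.3%) passed at shares near 19.1%. The partners of POR and DHODH (83.3%), VDAC1 and iron genes (41.7%) and regulators (77.8%) lay above it, and the light chains (0%) below.

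Of 9 tested genes of cystine and glutathione metabolism, 1 was higher and 1 lower at 10 µM, and 7 were higher and 1 lower at 20 µM against 10 µM. CTH, which makes cysteine from cystathionine, lay between 8.05 and 10.0 CPM among controls, between 19.5 and 32.2 CPM at 10 µM (log2 1.24, SE 0.18, edgeR adjusted p = 0.00316) and at 115 CPM at 20 µM. CHAC1, which degrades glutathione, lay between 0.885 and 5.10 CPM among controls, between 3.42 and 11.3 CPM at 10 µM and at 31.4 CPM at 20 µM. It passed neither test (edgeR adjusted p = 0.285 and 0.0945). Its controls were split, at 5.10 and 4.68 CPM in controls 1 and 4 and 0.936 and 0.885 in controls 2 and 3. The 10 µM replicates 2 to 4 stood at 5.24, 3.42 and 11.3 CPM. The part of that split in the missed calls was not tested. GCLC and GCLM, the subunits of the ligase that begins glutathione synthesis, are named after their values were seen. They were higher at 20 µM than at 10 µM by 2.48 and 1.97 on the log2 scale, and their 10 µM differences of -0.01 and -0.09 did not pass. Of the other light chains of SLC3A2, 4 were tested and edgeR called 0 at 10 µM, where SLC7A5 stood at -0.38 (unadjusted p = 0.0333, adjusted p = 0.115), and SLC7A5 was higher at 20 µM than at 10 µM by 1.43.

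Of 10 tested genes of the GPX family and of selenoprotein synthesis, 2 were higher at 10 µM and 1 at 20 µM against 10 µM. SEPSECS, which completes selenocysteine on its tRNA, lay between 16.7 and 24.8 CPM among controls, between 32.01 and 43.9 CPM at 10 µM (log2 0.81, SE 0.16, edgeR adjusted p = 0.0115) and at 26.0 CPM at 20 µM. GPX1, the cytosolic peroxidase, was at most 1.97 CPM in any library and passed neither test. Of 17 genes of quinone reduction and radical trapping, 1 was higher and 2 lower at 10 µM, and 1 higher and 9 lower at 20 µM against 10 µM. NQO1, a cytosolic quinone reductase, was the 1 higher at 20 µM, where it stood at 303 CPM after 123 to 152 CPM at 10 µM (log2 1.15, SE 0.14, edgeR adjusted p = 0.000854).

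Of 21 tested genes of lipid remodelling, 2 were higher and 1 lower at 10 µM, and 3 higher and 5 lower at 20 µM against 10 µM. SCD, which makes monounsaturated fatty acids, lay between 464 and 704 CPM among controls, between 1644 and 1736 CPM at 10 µM (log2 1.39, SE 0.16, edgeR adjusted p = 0.00148) and at 403 CPM at 20 µM. Like ACSL4 it rose at 10 µM and was lower at 20 µM than at 10 µM. ACSL3, the synthetase that favours monounsaturated fatty acids, lay between 110.1 and 137 CPM among controls, between 139.8 and 197 CPM at 10 µM and at 199.6 CPM at 20 µM, and did not pass at 10 µM (edgeR adjusted p = 0.184). PEBP1, a lipoxygenase scaffold, fell by 0.62 at 10 µM (SE 0.13, edgeR adjusted p = 0.0126).

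Of 6 tested partners of POR and DHODH, 2 were higher and 3 lower at 10 µM, and 0 were higher and 3 lower at 20 µM against 10 µM. CYP51A1 and SQLE, sterol enzymes that take electrons from POR, rose by 1.30 and 1.24 at 10 µM (edgeR adjusted p = 0.000491 and 0.00123). Their difference between 20 µM and 10 µM was -1.93 and -1.20, opposite in sign to that of POR. CAD and UMPS, the enzymes before and after DHODH in pyrimidine synthesis, fell by 0.65 and 0.51 at 10 µM (edgeR adjusted p = 0.00425 and 0.00982), as did UCK2, a uridine-cytidine kinase, by 0.63. At 20 µM against 10 µM UMPS was lower (log2 -1.12, edgeR adjusted p = 0.00171), and CAD stood at -0.46 (adjusted p = 0.0582).

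Of 12 tested genes of VDAC1 and iron handling, 3 were higher and 2 lower at 10 µM, and 3 higher and 5 lower at 20 µM against 10 µM. VDAC1, the other isoform of the channel, lay between 335 and 418 CPM among controls, between 283 and 294 CPM at 10 µM and at 178 CPM at 20 µM. Its log2 fold changes were -0.51 at 10 µM (SE 0.13, edgeR adjusted p = 0.0249) and -0.70 for 20 µM against 10 µM (SE 0.20, adjusted p = 0.0309). All 3 VDAC genes thus fell at 10 µM.

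Of 9 regulators, 4 were higher and 3 lower at 10 µM, and 5 were higher and 0 lower at 20 µM against 10 µM. ATF4, the transcription factor of the amino acid response, lay between 276 and 314 CPM among controls, between 392 and 439 CPM at 10 µM (log2 0.35, SE 0.10, edgeR adjusted p = 0.0369) and at 1005 CPM at 20 µM. NFE2L2, which encodes NRF2, lay between 104 and 122 CPM among controls, between 101 and 167 CPM at 10 µM (edgeR adjusted p = 0.888) and at 385 CPM at 20 µM (log2 1.64 against 10 µM, SE 0.22, adjusted p = 0.00129). SAT1, a polyamine acetyltransferase, BACH1, a repressor at NRF2-type sites, and the stress factor ATF3 rose at 10 µM by 1.48, 0.69 and 2.65, and the deubiquitinase OTUB1 fell by 0.44.

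**Figure D4:**
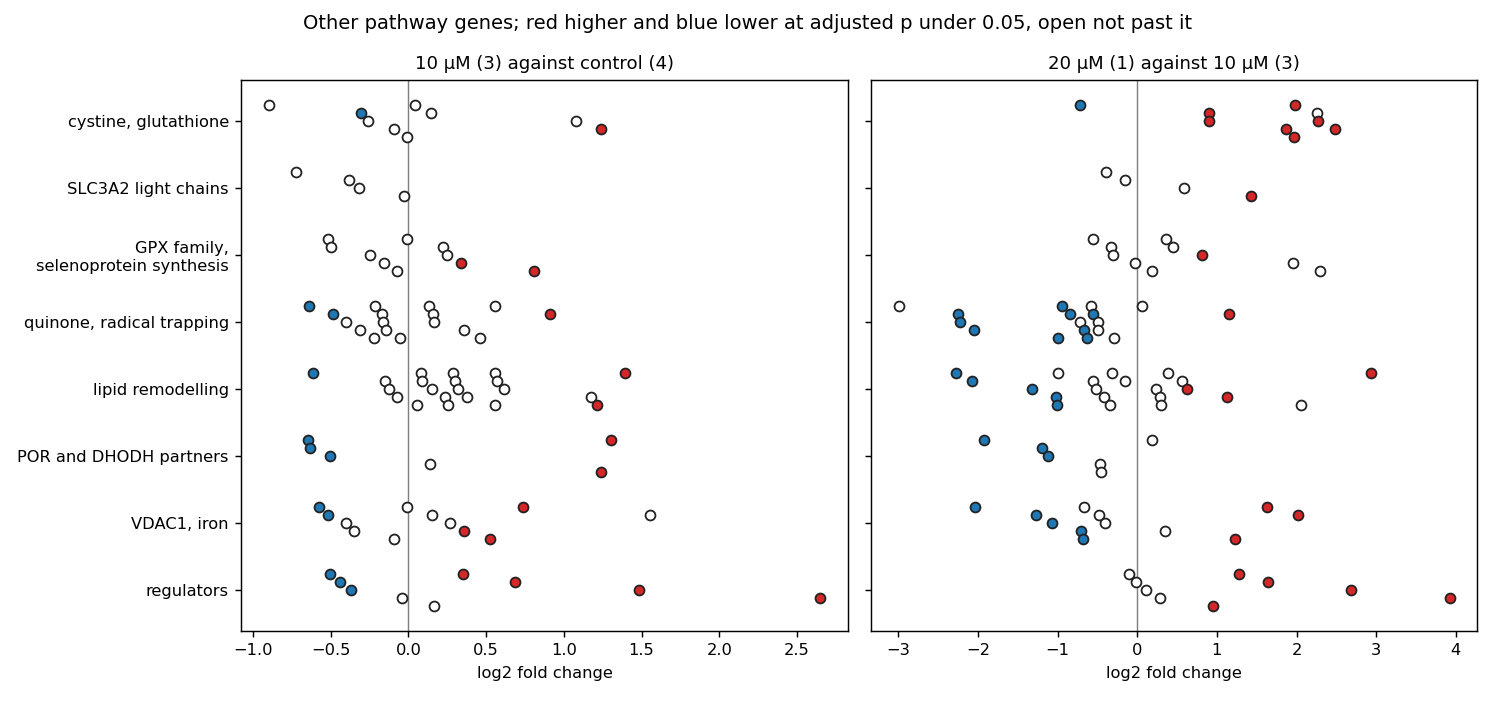
Log2 fold changes of the tested genes in 8 lists of the pathway, each point a gene, for 10 µM against control and for the 20 µM library against 10 µM (axes differ). Red points are higher and blue lower at an adjusted p under 0.05, with 15 red and 12 blue points on the left and 21 and 23 on the right.

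The genes whose profiles over the 8 libraries were nearest to that of SLC7A11, by the root mean square difference of centred log2 CPM among 13100 other genes, were CXCL3 (0.233), CSF1 (0.243), SQSTM1 (0.263), FAM114A1 (0.270) and FNDC4 (0.275). CXCL3 is a chemokine, CSF1 a growth factor of macrophages and SQSTM1 the autophagy receptor p62. SQSTM1 stood at 124 to 198 CPM in the controls, 515 to 727 at 10 µM and 3202 at 20 µM. Nearest to DHODH were MRTO4 (0.083), C20orf27 (0.097), NDUFAF8 (0.105), WDR4 (0.106) and RBM14 (0.109). MRTO4, a ribosome assembly factor, stood at 202 to 224 CPM in the controls, 103 to 129 at 10 µM and 51.0 at 20 µM. The single 20 µM library weighs most in this likeness. On the log2 scale it stood 4.255 from the control mean for SLC7A11, where 10 µM libraries stood at 1.05 to 2.24. For DHODH it stood at -2.23, and the 10 µM libraries at -0.745 to -1.23.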

How the data were processed

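Values are the authors' deposited whole-number counts, 1 row a gene symbol, for 8 RNA-seq libraries of K562 cells; 9 lines that name no gene were dropped. Per the labels' protocols the RNA came from a Trizol extraction, was depleted of ribosomal RNA and was copied with random primers. The submitters' processing notes name hg38, HISAT2, StringTie, limma, DESeq2 and bcl2fastq 2.0, and which tool did what is not given in the sources used here. Counts of 4 (2958 entries) outnumber counts of 1 (401), so 1 count need not be 1 read.

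CPM is the count per 1000000 of its library's total. Tests used R 4.3.3 with edgeR 4.0.16 (filterByExpr, TMM, glmQLFit, glmQLFTest, two-sided), with SE as the log2 fold change over the root of F. The dose comparisons come from 1 fit over control, 10 µM and 20 µM, and the combined comparison from a fit of treated and control. DESeq2 1.42.0 and limma 3.58.1 (voom) were alternatives, with other scalings, filters, left-out libraries and a replicate block. The code was tested on simulated counts. Lengths and positions come from GENCODE 29, which 19029 symbols matched.

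Same-numbered control and treated libraries deviated together, with correlations across genes of 0.453, 0.251, 0.390 and 0.262 for replicates 1 to 4. Treated replicate 1 is the lone library at the higher dose, so in its 0.453 a shared replicate cannot be told apart from the dose. Control 2 correlated most with treated replicate 3 (0.310). The numbers were taken to pair the samples in the replicate block only, and the main tests did not use them. The 10 genes and the lists were chosen with earlier results of these data known. Pathway genes are named where they passed with both doses combined (at most 4 a list, by p), with a set list of related genes whatever their result (VDAC1, ACSL3, SLC7A5, CAD, UMPS, ATF4, NFE2L2, GPX1, CHAC1, CYP51A1, SQLE, NQO1 and SCD) and the 5 nearest profiles to SLC7A11 and DHODH. GCLC and GCLM fall outside this rule.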

Additional observations from a re-analysis of the deposited data

Results flagged for a closer look

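The response at 20 µM differed from that at 10 µM, by edgeR's test of the 20 µM library against 10 µM, in 9 of the 10 genes. On the log2 scale it was higher at 20 µM by 2.50 for SLC7A11, 2.04 for SLC3A2, 1.02 for POR, 0.88 for AIFM2 and 0.62 for GPX4. It was lower, with differences of -1.60 for LPCAT3, -1.24 for DHODH, -1.14 for VDAC3 and -1.13 for ACSL4. Only 1 library was given 20 µM, and 62.3% of all genes tested lay beyond the 7 other libraries there.

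Among the 4 controls, control 1 lay apart from the others in VDAC2, at 284 CPM against 253 in each of the other 3. With TMM-scaled totals it did not, since the controls were then at 284, 267, 280.4 and 256. Control 4 lay apart in the ratio of ACSL4 to ACSL3, at 0.388 against 0.437 to 0.447. In all, 23 levels and ratios were examined this way, and chance marks about 1 in 20.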

How the results depend on the processing

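Over the 10 genes and 3 comparisons, 0 of 460 refits with a test turned a called direction. In 10 refits the sign changed where neither fit passed. With both doses combined, GPX4 went from 0.116 to -0.081 and POR from 0.114 to -0.233 without the 20 µM library. The refits reuse the same libraries and are not independent. With the replicate block 8 genes passed at 10 µM (4657 of all genes, against 2842), and 2815 of all genes passed with both doses combined, against 1855; beyond those given above, the block changed no other call of the 10 genes. With both doses combined DESeq2 called 3395 genes and 24 pathway genes, limma-voom 6 pathway genes, and without the 20 µM library 3021 and 27 were called, against 12 pathway genes. Of the 10 genes DESeq2 called 5 in that comparison, adding SLC3A2 (DESeq2 adjusted p = 0.0466). There limma-voom called 3, losing ACSL4 (limma-voom adjusted p = 0.0607). In letter-named libraries alone (controls 1 and 4, 20 µM replicate 1, 10 µM replicate 4) edgeR called 0 of the 10 genes (2 at an unadjusted p under 0.05), 0 pathway genes (16) and 0 of all genes (2694). In digit-named libraries alone it called 6, 28 and 3137. Leaving out 1 replicate gave 0 to 3 of the 10 genes, 0 to 11 pathway genes and 64 to 2063 of all genes with both doses combined, and 4 to 6 and 1364 to 2788 at 10 µM, the latter lowest without controls 2 (1880) or 3 (1640) and 10 µM replicates 3 (1364) or 4 (1463). At 20 µM against 10 µM 8 or 9 of the 10 passed in each. The span of per-length levels moved from 41.4 to 84.1 with the longest transcript as the length. The lowest count of the 10 genes was 901; since 1 count need not be 1 read, it gives no counting error.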

Other observations

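Among the untreated cells, some libraries have letters in their submitted names (controls 1 and 4) and some digits (controls 2 and 3). In CPM the letter-named controls lay above the digit-named for SLC7A11, SLC3A2, POR and, narrowly, VDAC2. They lay below them for AIFM2, ACSL4 and LPCAT3, and the other genes of the 10 overlapped. With TMM-scaled totals only AIFM2, ACSL4 and LPCAT3 stayed apart. With 2 libraries on each side such separation can arise by chance. It was not tested, and the share of all genes separated in this way was not counted. ACSL4 stood at 43.3 and 43.4 CPM in the letter-named and 54.1 and 51.2 in the digit-named controls, and LPCAT3 at 28.6 and 29.4 against 35.8 and 37.1. The naming is a pattern that the labels do not call a batch. With both doses combined against control, SLC7A11 stood at 3.35 on the log2 scale in letter-named libraries, which include the 20 µM library, and at 1.54 in digit-named libraries, DHODH at -1.66 and -0.96, and ACSL4 at 0.70 and 1.13.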
